A study of Homo sapiens with 7 samples.

Results

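Control HEL cells were described on their own, from the 3 libraries of the non-targeting control group (NTC) out of 7 RNA-seq libraries in the series. The members were chosen by the sample titles alone, and the 4 libraries made with guides against WTAP were not compared with them. HEL is an established human erythroleukemia cell line, and the study used it as a stand-in for developing red cells. All 3 control cultures had the same treatment, a lentiviral lentiCRISPRv2 vector that carries Cas9 and a guide RNA without a human target, and they grew in RPMI-1640 with fetal bovine serum. The control libraries are therefore transduced cells and not untouched HEL cells, and no source used here says whether they came from 1 clone or from a mixed population. Nothing in the labels shows that the replicates were separate transductions, so the spread given here is that between these samples and may be technical.

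Red cell development is driven by a group of transcription factors around GATA1, which switch on the globins, the enzymes of heme synthesis and the proteins of the red cell membrane. Megakaryocytes, the parent cells of platelets, share a progenitor and many of these factors with the erythroid lineage, while granulocytes and monocytes rely on other factors such as the C/EBP family. A cell line arrested between these fates can carry transcripts of more than 1 of them, and the lists that follow were used to see which were present in control HEL cells.

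Levels are given in CPM, counts per 1000000 reads counted to genes. The libraries held 40985430, 37317530 and 37876462 counted reads in replicates 1, 2 and 3, so that 3 reads, taken as the floor of counting noise, corresponded to 0.0732 to 0.0804 CPM. Such floors cover counting error only. Of 24819 listed gene symbols, 11755 were present, meaning 1 CPM or more in every library (47.4%), 8869 lay under 3 reads in every library (35.7%) and 4195 fell between. The levels were spread widely, with 8984 symbols at a mean of 10 CPM or more, 2461 at 100 or more and 87 at 1000 or more. Protein-coding genes took 98.7 to 98.8% of the reads and made up 11155 of the present symbols. Of the 18836 protein-coding symbols listed 59.2% were present, a nearer background for lists of protein-coding genes than the 47.4% of all symbols. Of 1825 long noncoding RNA symbols 288 were present, and of 1128 symbols annotated as microRNA 1 was. A further 2039 symbols had no match in the annotation and no class. No symbol of the mitochondrial genome was listed. The files gave almost no reads to the genes of the first pseudoautosomal region, with 19 of 20 symbols there under 3 reads in every library and a highest value of 4 reads, so that a listed 0 for one of these genes was not read as a missing transcript.

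The 5 markers of this erythroleukemia line were present in all 3 libraries. GATA1, the central erythroid and megakaryocytic transcription factor (chromosome X, 48644998 to 48652718, plus strand, on GRCh37), measured 232, 293 and 246 CPM in replicates 1, 2 and 3. GFI1B, a repressor that acts with GATA1 (chromosome 9, 135854081 to 135867074), measured 325, 363 and 322 CPM. HBE1, the embryonic epsilon globin (chromosome 11, 5289575 to 5291175), measured 1636, 1656 and 1542 CPM. These 3 genes kept close levels in the libraries, the largest ratio of highest to lowest being 1.26 for GATA1. HBG2, a fetal gamma globin (chromosome 11, 5274418 to 5276011), measured 608, 1226 and 954 CPM, and CD36, a scavenger receptor of early erythroid cells (chromosome 7, 80267958 to 80308590), measured 169.7, 154 and 168 CPM. HBG2 was the one marker with a wide spread, its highest library holding 2.02 times the CPM of its lowest. Of all listed symbols 47.4% were present, and of protein-coding symbols 59.2%. The 5 markers were picked as genes of this line, and GATA1 is also a megakaryocytic factor. Their presence at the RNA level is therefore a weak check of the label and does not by itself show an erythroid identity.

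The most abundant mRNAs were those of translation, glycolysis, the cytoskeleton and protein folding. EEF1A1, the elongation factor that brings aminoacyl-tRNA to the ribosome, took the most reads with 12162, 13260.1 and 12687 CPM. RPL4, a protein of the large ribosomal subunit, followed with 4641, 5595 and 4978 CPM and ACTB, beta actin, with 5346, 4790.3 and 4813 CPM. The 10 highest symbols together took 4.73, 5.17 and 4.84% of the reads in replicates 1, 2 and 3, and the 100 highest took 16.6, 18.6 and 17.4%, so no small group of transcripts dominated a library. GAPDH, ENO1 and PKM of glycolysis averaged 4613 ± 564, 3728 ± 57.8 and 2280 ± 83.6 CPM (SD, n = 3). HSP90AB1, HSPA8 and HSP90AA1, chaperones of the cytosol, averaged 4143 ± 297, 2905 ± 282 and 2078 ± 279.5 CPM. Other symbols among the 20 highest included the ribosomal proteins RPLP0, RPS6, RPLP1 and RPS2, ACTG1 and TUBB of the cytoskeleton, and NCL, PTMA, YBX1 and PABPC1, which act on chromatin, RNA or ribosome assembly. The libraries lay far apart for RPLP0, RPLP1 and RPS2, RPLP0 at 3053, 5263 and 4246 CPM and RPS2 at 1471, 2646 and 2121 CPM, and replicate 2 was the highest library in each.

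**Figure D1:**
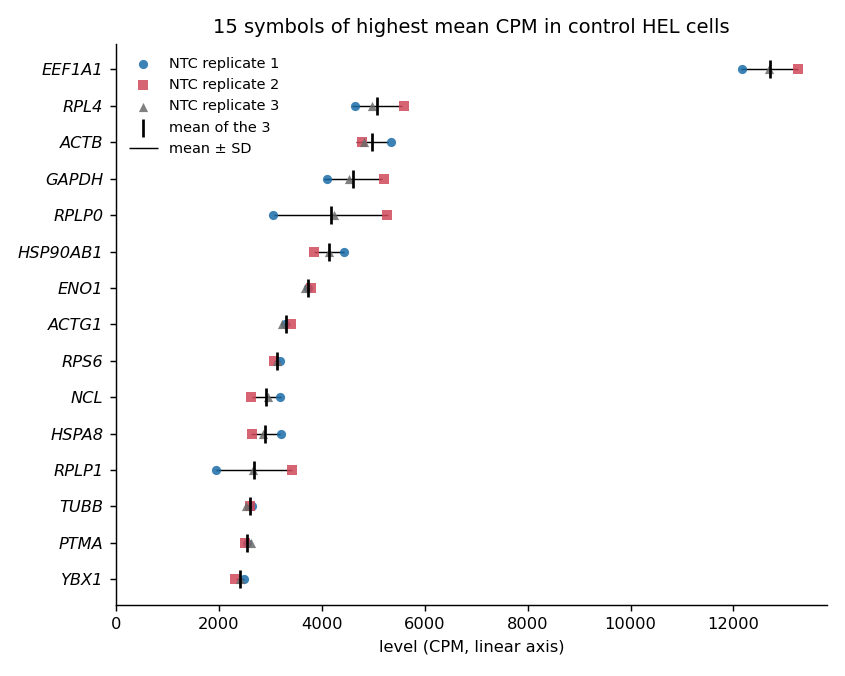
Levels in CPM on a linear axis for the 15 symbols of highest mean in the 3 control libraries, with a point for each library, a bar at the mean and a line for ± 1 SD. EEF1A1 stands apart from 12162 to 13260 CPM, and RPLP0 shows the widest line, from 3053 CPM in replicate 1 to 5263 CPM in replicate 2.

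CPM favors long transcripts, so genes were ranked against each other per kilobase. With the union of annotated exons as length, the 10 highest protein-coding genes included RPS12, GAPDH, HBE1, HSP90AB1, EEF1A1, FTL, RPL41, RPS6 and ACTB, from 2104 ± 268 to 1131 ± 71.4 CPM per kilobase (SD, n = 3). HBE1 was the only lineage-restricted gene of the 10, with 1677 ± 63.2 CPM per kilobase. FTL, the light chain of the iron store ferritin, reached 1252 ± 205 CPM per kilobase. Neighbours in this order lay within each other's SD in several places, and EEF1A1, at 1262 ± 54.6 CPM per kilobase, and FTL differed by less than the SD of either. With the length of the canonical transcript, RPLP0, EEF1A1 and GAPDH came among the first and HBE1 came 9th with 2587 ± 97.6 CPM per kilobase, and 6 of the 10 genes were shared with the first ranking. The longest annotated transcript as length also put HBE1 9th and shared 8 of the 10. A globin thus stood among the 10 highest protein-coding genes per kilobase under each of the 3 lengths tried, while its place in the order depended on the length.

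Most transcription factors of the erythroid lineage were present, 17 of 18, against 47.4% of all listed symbols. TAL1, a partner of GATA1 in the erythroid complex, measured 411, 359.8 and 384 CPM, and NFE2, which drives globin and platelet genes, measured 296, 372 and 316 CPM. LDB1 and LMO2, the bridging members of the same complex, averaged 239 ± 16.4 and 133 ± 3.37 CPM (SD, n = 3). KLF1, the activator of adult beta globin, averaged 94.8 ± 15.2 CPM and its relative KLF3 51.8 ± 2.73 CPM. ZFPM1, the cofactor that binds GATA1 directly, was lower at 49.7, 47.3 and 47.6 CPM. SOX6, a repressor of embryonic globin, was the one member without a measurable level, with 1 read in each of the 3 libraries. None of the 17 present members had a highest library 1.5 times its lowest or more, against 5.32% of all symbols with a mean of 1 CPM or more. A list of 17 is too short to set this apart from that share. The list's summed level was 2812, 2961 and 2814 CPM in replicates 1, 2 and 3.

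Most globin reads were those of embryonic HBE1 and fetal HBG2. Of the list 9 of 10 members were present, adult HBB and HBD among them, and HBM had no read. The share was 90%, against 59.2% of protein-coding symbols. Summed over the list they took 2576, 3422 and 2875 CPM in replicates 1, 2 and 3. HBE1 made up 63.5, 48.4 and 53.7% of that sum in replicates 1, 2 and 3, and HBG2 made up 23.6, 35.8 and 33.2%. HBB, the adult beta globin, was at 6.12, 14.2 and 9.95 CPM and HBD, the minor adult delta globin, at 2.68, 3.67 and 3.27 CPM. On the alpha side HBA1 measured 108, 172 and 155 CPM, HBA2 73.3, 95 and 61.8 CPM and HBZ, the embryonic zeta globin, 49.2, 46.8 and 52.4 CPM. Per kilobase of union exon, HBE1 averaged 1677 ± 63.2, HBG2 1105 ± 369, HBA1 174 ± 39.5 and HBB 7.75 ± 3.11 CPM per kilobase. HBE1 and HBG2 therefore stood above every alpha-type gene and above HBB by more than their spread, and HBE1 was above HBG2 in each library, from 1703 against 723 CPM per kilobase in replicate 1 to 1723 against 1458 in replicate 2. The order of HBA2 and HBG1 changed with the length used.

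Reads of near-identical globin copies could not be assigned with certainty. HBA1 and HBA2 shared 81.6% of their 50-base windows and HBG1 and HBG2 shared 67.7%, in the direction from the first gene to the second. HBG1 measured 86.7, 198 and 86.4 CPM, nearly equal in replicates 1 and 3 and far higher in replicate 2, whereas the sum of HBG1 and HBG2 was 695, 1424 and 1041 CPM. HBE1 shared 0.174% of its windows with HBG2, so its level was little touched by this sharing. The values for the separate alpha and gamma copies are uncertain for this reason, and their sums are the firmer quantity.

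**Figure D2:**
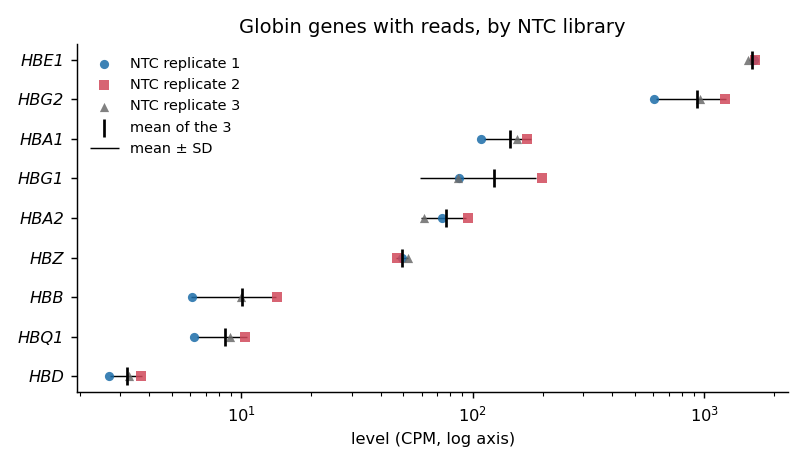
Levels in CPM on a log axis for the 9 globin genes that had reads, with a point for each control library, a bar at the mean and a line for ± 1 SD. HBE1 and HBZ have close points, while HBG2, HBG1, HBA1 and HBB have replicate 2 on the right and a spread of 1.59 to 2.32 between the highest and the lowest library.

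The whole route of heme synthesis was present, 12 of 12 members, from the first enzyme to the iron insertion step. For comparison, 47.4% of all symbols and 59.2% of protein-coding symbols were present. UROD, an enzyme of the cytosolic middle steps, had the most reads of the list with 567, 681 and 612 CPM. ALAS2, the erythroid form of the first enzyme, measured 35.8, 46.9 and 39.4 CPM, and ALAS1, its housekeeping form, measured 102, 105 and 104 CPM. Per kilobase of union exon, ALAS1 stood 2.30, 1.80 and 2.13 times above ALAS2 in replicates 1, 2 and 3, and the canonical lengths gave 2.33, 1.82 and 2.15. The housekeeping form was thus the higher one in every library. FECH, which inserts iron, averaged 85.9 ± 2.66 CPM and SLC25A37, a mitochondrial iron importer, 116 ± 2.44 CPM (SD, n = 3). No member reached a ratio of 1.5, which only 5.32% of all symbols with a mean of 1 CPM or more did.

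Of the red cell membrane and surface list 26 of 29 members were present (89.7%), against 47.4% of all symbols and 59.2% of protein-coding symbols. EPB41, the skeletal protein 4.1, measured 527, 439 and 479 CPM and EPB42, protein 4.2, measured 248, 234 and 233 CPM. GYPC, glycophorin C, measured 279, 424 and 367 CPM. GYPC, ICAM4 and ADD2 had a ratio over 1.5, 1.52, 1.57 and 1.66, with replicate 2 highest. RHAG, the Rh-associated glycoprotein, was steadier at 228, 228 and 227 CPM. ANK1 and SPTB, ankyrin and beta spectrin of the membrane skeleton, averaged 238 ± 8.74 and 137 ± 3.18 CPM (SD, n = 3). SLC4A1, the band 3 anion exchanger of mature red cells, lay below the level taken as present in every library, at 0.634, 0.322 and 0.792 CPM, as did ACHE and BCAM. The Rh pair shares sequence, with 14.1% of RHD windows found in RHCE.

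Of the list of late erythroid enzymes and effectors 11 of 13 members were present (84.6%), against 47.4% of all symbols and 59.2% of protein-coding symbols. CA1, a red cell carbonic anhydrase, reached 927, 897 and 899 CPM, and HEMGN, a nuclear protein of erythroid progenitors, 162, 143 and 158 CPM. EPOR, the erythropoietin receptor, measured 25.4, 28.6 and 26 CPM and BPGM, which makes the hemoglobin ligand bisphosphoglycerate, 15, 12 and 13.2 CPM. AHSP, the chaperone of free alpha globin, held 0, 4 and 2 reads and ALOX15, a lipoxygenase of reticulocytes, held 4, 1 and 2, which put both near the floor of 3 reads. BLVRB, biliverdin reductase B, was the member of this list with a ratio over 1.5, at 98.3, 160.4 and 122 CPM.

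Iron handling genes were nearly all present, 13 of 14 (92.9%, against 59.2% of protein-coding symbols). Their summed level was 4449, 4722 and 4548 CPM. FTL measured 927, 1281 and 1063 CPM and FTH1, the heavy ferritin chain, 585, 685 and 620.1 CPM. TFRC, the transferrin receptor of dividing and erythroid cells, measured 863, 708 and 814 CPM, and TFR2, its iron-sensing relative, 139, 182 and 152 CPM. Per kilobase TFRC stood above TFR2 in every library, by 1.81, 1.13 and 1.56 times with union exons and by 3.59, 2.24 and 3.08 times with canonical transcripts. HFE, the regulator that binds TFRC, was below the level taken as present, at 0.195, 0.161 and 0.290 CPM.

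The promoters of some of these genes carry the recognition word of GATA factors, and 6 stretches are shown because each belongs to a present erythroid, megakaryocytic or mast cell gene described here. They come from RefSeq (GRCh38.p14) and run 5′ to 3′ along the gene within the 250 bases before the annotated start, with the matched word in capitals, and they were picked after their letters were seen.
EPB42, chr15:43221044-43221109, minus strand: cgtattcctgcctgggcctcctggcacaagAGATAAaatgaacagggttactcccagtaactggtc
RHAG, chr6:49636840-49636900, minus strand: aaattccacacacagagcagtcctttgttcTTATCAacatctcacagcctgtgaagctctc
ALAS2, chrX:55031069-55031134, minus strand: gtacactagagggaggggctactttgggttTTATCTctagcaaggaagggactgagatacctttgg
GFI1B, chr9:132978548-132978613, plus strand: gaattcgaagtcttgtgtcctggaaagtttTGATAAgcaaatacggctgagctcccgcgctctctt
ITGA2B, chr17:44389716-44389781, minus strand: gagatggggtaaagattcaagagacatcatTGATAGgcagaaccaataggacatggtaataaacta
FCER1A, chr1:159302184-159302249, plus strand: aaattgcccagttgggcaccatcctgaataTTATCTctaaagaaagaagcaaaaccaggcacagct
The word AGATAA was searched on both strands. The search also took the spelling AGATAG of the same motif, then the spelling TGATAA and last the spelling TGATAG, none of which can match at the same place as another. A word printed as TTATCA is a match on the opposite strand, and so is one printed as TTATCT. The word ended 26 bases before the start in RHAG, 56 in EPB42, 97 in ITGA2B, 111 in GFI1B, 117 in FCER1A and 122 in ALAS2. A match was held by 22.3% of all 35116 promoters in the table and by 14.2% of the promoters of present symbols. Among the lists it was held by 17 of 38 promoters of the membrane and surface list (44.7%), 8 of 29 of the erythroid factors (27.6%), 11 of 33 of the megakaryocyte list (33.3%) and 1 of 14 of the granule list (7.14%). It was held by 11 of 42 of the granulocyte-monocyte list (26.2%), 9 of 41 of the stem and progenitor list (22%) and 7 of 25 of the lymphoid list (28%), shares near that of the erythroid factors. The highest share was that of the mast cell list, 4 of 6 promoters (66.7%). The globins had 1 of 2, the late erythroid list 4 of 10 (40%) and the heme list 4 of 11 (36.4%). Not every member of these lists was in the table, 1 gene can have several promoters, and a match is a run of letters and not a shown binding site.

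Control HEL cells carried most of a megakaryocyte and platelet set alongside the erythroid one, with 26 of 32 members present. That is 81.25%, against 47.4% of all symbols and 59.2% of protein-coding symbols. ITGA2B, the platelet integrin alpha chain and gene of CD41, measured 1099, 1139 and 1071 CPM, and its partner ITGB3 measured 338, 282 and 319 CPM. RUNX1 and FLI1, transcription factors of megakaryocytes, averaged 812 ± 69 and 261 ± 5.27 CPM (SD, n = 3). GP1BA, the platelet receptor for von Willebrand factor, averaged 109.7 ± 5.28 CPM. The libraries lay close together for these genes, the highest ratio among them being 1.20 for ITGB3. Among proteins stored in platelet granules, THBS1, thrombospondin, averaged 159 ± 20.6 CPM and SELP, P-selectin, 70.6 ± 2.13 CPM. PF4, platelet factor 4, was at 7.56, 8.41 and 8.92 CPM and PPBP, another granule chemokine, at 0.146, 0.161 and 0.106 CPM, below the level taken as present. Granule genes thus differed member by member. VWF, CLEC1B, F13A1, PF4V1 and GP1BB lay under 3 reads in every library, PF4V1 and GP1BB with no read at all. A read-through symbol, SEPT5-GP1BB, is listed beside GP1BB and reads that fit both may have been left uncounted, so the 0 of GP1BB was not read as a missing transcript. In a bulk sample, few cells that carry a transcript and little transcript in each cell cannot be told apart.

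Most granule genes of neutrophils and other myeloid cells were low, with 6 of 24 members present and 12 of 24 under 3 reads in every library, against 47.4% and 35.7% of all symbols. MPO, the myeloperoxidase of primary granules, had 1, 0 and 0 reads, ELANE, neutrophil elastase, had 2, 0 and 0, PRTN3 had 1, 0 and 0 and AZU1 had none. BPI, MMP8, RNASE2 and CLC also had no read, and the defensins DEFA1, DEFA3 and DEFA4 were listed at 0. DEFA1 and DEFA3 share 82.6% of their windows, so their 0 is uncertain. Among the present members PRG2, the major basic protein of eosinophils, measured 202, 196 and 196 CPM, and LYZ, lysozyme, measured 41.3, 44.2 and 43.7 CPM. SERPINB1, SRGN and LCN2 were also present, at 77.3 ± 4.51, 22.3 ± 2.12 and 30.7 ± 3.46 CPM (SD, n = 3), and LTF, lactoferrin, was close to the limit at 1.02, 1.90 and 1.32 CPM. EPX, the peroxidase that accompanies PRG2 in eosinophil granules, had 4, 0 and 5 reads.

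Factors and receptors of granulocytes and monocytes were split too, with 9 of 33 present (27.3%) and 11 of 33 under the floor. Of all symbols 47.4% were present and 35.7% under the floor, so only the present share was clearly lower. SPI1, the myeloid transcription factor PU.1, measured 71.4, 75.1 and 73.6 CPM and CD33, a myeloid surface lectin, 162, 162 and 154 CPM. CSF2RB, the shared beta chain of cytokine receptors, averaged 117 ± 5.39 CPM and FCGR2A, an Fc receptor, 86.1 ± 6.79 CPM (SD, n = 3). CEBPA, the master factor of granulocytes, was below the level taken as present at 0.732, 1.02 and 0.660 CPM, as was GFI1 at 0.659, 0.965 and 0.766 CPM. CEBPB, of the same C/EBP family, had a mean of 1 CPM or more, as did CSF1R, CYBB, TLR4, CD68 and NCF1. CD14, S100A8, S100A9, CEBPE, KLF4 and CD163 lay under or at 3 reads, and IRF8 and FCN1 had no read. IL3RA and CSF2RA had no read either, but they lie in the pseudoautosomal region and were not interpreted.

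Mast cell and basophil genes were present in part, 5 of 8 (62.5%), a share near the 59.2% of protein-coding symbols. HDC, histidine decarboxylase, which makes histamine, measured 721, 738 and 697 CPM, and FCER1A, the alpha chain of the IgE receptor, measured 559, 584 and 591 CPM. FCER1G, the signaling chain of that receptor, averaged 32.9 ± 1.37 CPM and MS4A2, its beta chain, 2.57 ± 0.210 CPM (SD, n = 3). The libraries differed by at most 1.06 times for HDC and FCER1A. GATA2, a factor shared by mast cells and progenitors, measured 745, 724 and 719 CPM. Per kilobase of union exon FCER1A averaged 496 ± 14.5, HDC 185 ± 5.23 and GATA2 148 ± 2.82 CPM per kilobase. The mast cell tryptases were below the level taken as present, TPSAB1 at 0.366, 0.322 and 0.211 CPM and TPSB2 at 0.561, 0.643 and 0.792 CPM, and they share 72.0% of their windows. The mast cell protease CPA3 reached the level in replicates 2 and 3 only, at 0.903, 1.80 and 1.48 CPM.

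GATA2 and GATA1 could not be ordered without naming the length. Per kilobase of union exon the ratio of GATA2 to GATA1 was 1.02, 0.781 and 0.926 in replicates 1, 2 and 3. With canonical transcripts it was 1.39, 1.07 and 1.27. The level of GATA2 itself was steady between libraries, while GATA1 was higher in replicate 2.

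Stem and progenitor genes were present for 14 of 25 members (56%), between the 47.4% of all symbols and the 59.2% of protein-coding symbols. MYB, a factor of dividing progenitors, measured 139, 124 and 132 CPM and KIT, the stem cell factor receptor, 37.2, 33.8 and 36.6 CPM. MECOM, HOXB4, HOXA10 and MEIS1 averaged 38.7 ± 3.45, 28.7 ± 3.00, 17.5 ± 0.419 and 17.6 ± 0.633 CPM (SD, n = 3). CD34, the usual surface marker of progenitors, was present at 7.20, 5.09 and 6.89 CPM. FLT3, HLF, SPINK2, CD38, BAALC, HOPX and CRHBP lay under 3 reads in every library, and HOXA9 had 4, 0 and 0 reads. BCL11A, a repressor of fetal globin, had 1, 2 and 5 reads, whereas the fetal globin repressor ZBTB7A measured 25.5, 22.3 and 23.9 CPM.

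Genes of other lineages were present in part. Of the lymphoid list 9 of 29 members were present (31%, against 47.4% of all symbols), led by CD4 at 130.1, 163 and 139 CPM and CD7 at 27.7, 35.7 and 29.4 CPM, while the T cell receptor chains CD3D, CD3E and CD3G had 3 reads or fewer in each library. The B cell marker MS4A1 had no read, but the B-lineage genes CD79A, CD79B and IGLL1 each had a mean of 1 CPM or more. So did IL7R, ZAP70 and PRF1, genes of T or NK cells. The summed level of this list was 215, 263 and 227 CPM, most of it CD4. Of the epithelial, stromal, endothelial, neural, liver and muscle genes 9 of 21 were present (42.9%). This share was near that of all symbols and below the 59.2% of protein-coding symbols. Their summed level was 433, 453 and 445 CPM. KRT18, a keratin, was at 154, 179 and 168 CPM and KDR, the vascular growth factor receptor, at 136, 123 and 132 CPM. EPCAM, ALB, DCN, KRT5, NEUROD1 and MYOD1 lay under the floor.

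**Figure D3:**
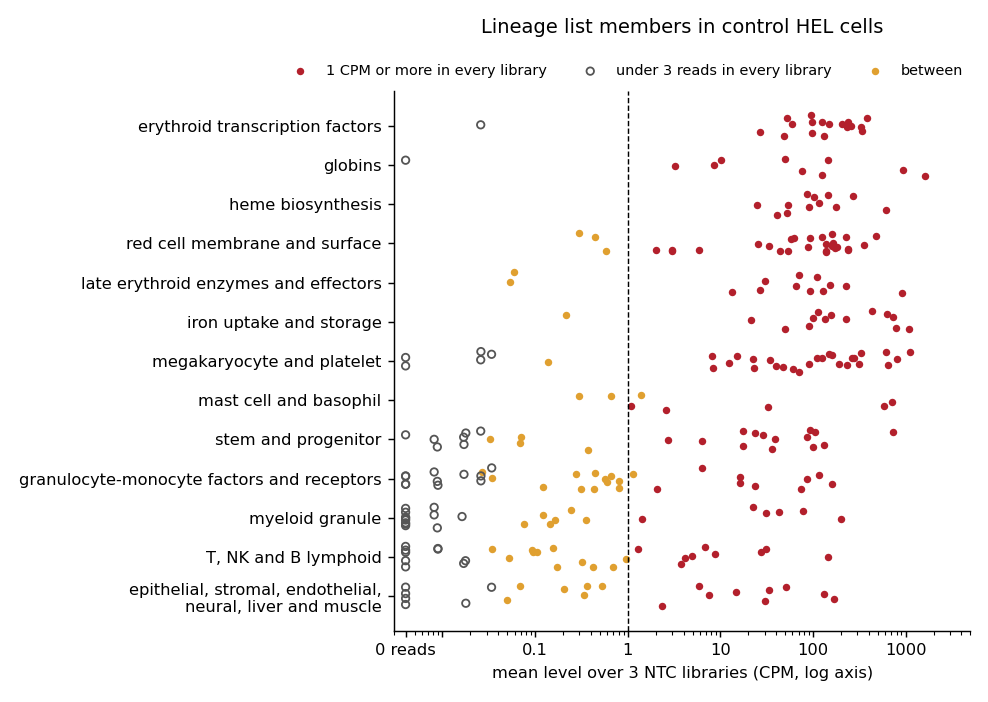
Mean level over the 3 control libraries in CPM on a log axis for every member of 13 lineage lists, with the dashed line at 1 CPM and members without a read at the left edge. Filled red points are members present in every library, open points lie under 3 reads in every library and yellow points fall between, and the erythroid and megakaryocyte rows lie mostly to the right of the line while most open points belong to the myeloid, progenitor, lymphoid and non-blood rows.

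Signaling from cytokine receptors was represented by 28 of 29 members (96.6%), against 47.4% of all symbols and 59.2% of protein-coding symbols. JAK2, the kinase of the erythropoietin receptor, measured 211, 191 and 217 CPM and STAT5A, its main target, 523, 525 and 503 CPM. PIM1 and BCL2L1, targets of STAT5, averaged 695 ± 5.33 and 716 ± 24 CPM (SD, n = 3), and CISH and SOCS3, feedback inhibitors, 49.2 ± 2.59 and 68.6 ± 1.89 CPM. The libraries lay within a ratio of 1.06 for BCL2L1 and 1.01 for PIM1. All 15 genes of the m6A list, which write, erase or read N6-methyladenosine on mRNA, were present. WTAP, the gene targeted elsewhere in the series, measured 145, 136 and 149 CPM in these controls, METTL3, the catalytic subunit, 31.9, 28.6 and 29.4 CPM and METTL14, its partner, 21.9, 17.3 and 18.6 CPM. All 14 S-phase and all 14 mitotic genes and all 14 cholesterol genes were present too, TOP2A, a mitotic topoisomerase, at 784, 669.8 and 741 CPM and MKI67, a marker of dividing cells, at 439, 365 and 398 CPM. Of the glycolysis and hypoxia list 21 of 22 members were present, with CA9, a hypoxia-induced carbonic anhydrase, as the one at the floor with 2, 2 and 3 reads. Interferon-induced genes were present for 8 of 14 members (57.1%), a share near that of protein-coding symbols. Their summed level was 277, 277 and 282 CPM.

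The 3 libraries were close to each other but not equal within counting error. Pearson's r of log2(CPM + 1) across the 24819 symbols was 0.998 between replicates 1 and 2, 0.999 between 1 and 3 and 0.999 between 2 and 3, where symbols are not independent and share the libraries. The common biological coefficient of variation by edgeR, the spread beyond counting error, was 9.16%. Of 11943 symbols with a mean of 1 CPM or more, 635 had a highest library at least 1.5 times the lowest (5.32%) and 73 at least 2 times. A chi-square test of the recovered reads called 6161 of them unequal among the libraries at an adjusted p under 0.01 (51.6%, Benjamini-Hochberg). At this depth small differences passed that test, and the median ratio of highest to lowest was 1.16, so the ratio is the more useful measure here.

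The difference lay mostly between replicates 1 and 2, with replicate 3 between them. The ratio passed 1.5 in 554 symbols between replicates 1 and 2, in 142 between 1 and 3 and in 111 between 2 and 3. Of the 554 symbols 495 were higher in replicate 2. Over all tested symbols replicate 3 was the middle library for 7602 (63.7%). The first principal component of the tested symbols held 83.6% of the variance and placed replicate 3 at -0.06, between -0.68 for replicate 1 and 0.73 for replicate 2. Without replicate 1 the count of symbols past 1.5 was 115, without replicate 2 it was 133 and without replicate 3 it was 545.

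Genes of the ATF4 stress response are switched on when amino acids run short or protein folding fails. They followed this order throughout and had the largest share of members past 1.5 of all lists used here. The lists were chosen with earlier results of these data known, so the shares describe these libraries and are not an independent test. All 11 tested members were higher in replicate 2 than in replicate 1 under each scaling, against 41.4% of all tested symbols. Replicate 3 was in the middle for 11 of 11, against 63.7% of all tested symbols. Of the 554 symbols past 1.5 between replicates 1 and 2, 495 were higher in replicate 2. Replicate 3 lay between for 525 of them (94.8%), so this order was common among symbols that differed this much. Their summed level was 1255, 2277 and 1749.8 CPM, and 9 of 11 had a ratio of 1.5 or more, against 5.32%. DDIT4, a stress-induced inhibitor of mTORC1, measured 30.3, 182 and 107 CPM in replicates 1, 2 and 3, a ratio of 6.03. CHAC1, a glutathione-degrading enzyme, measured 13.4, 50.8 and 31.9 CPM and PHGDH, the first enzyme of serine synthesis, 121, 322 and 225 CPM. In each of these replicate 1 was lowest and replicate 2 highest. ASNS, asparagine synthetase, measured 66.3, 136 and 97.4 CPM, SESN2, a stress-induced regulator of mTORC1, 25.1, 62.5 and 43 CPM and ATF4 itself 485, 739 and 604 CPM. TRIB3, a pseudokinase induced by ATF4, and VLDLR, a lipoprotein receptor, stayed under 1.5, at 1.30 and 1.37. The median log2 difference of the list between replicates 2 and 1 was 1.03, against -0.06 over all tested symbols.

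**Figure D4:**
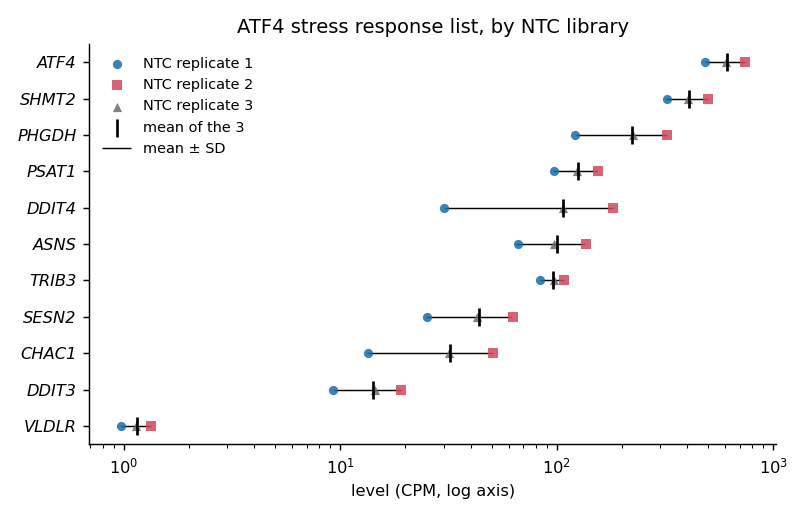
Levels in CPM on a log axis for the 11 members of the ATF4 stress response list, with a point for each control library, a bar at the mean and a line for ± 1 SD. Replicate 1 is the left point, replicate 3 the middle one and replicate 2 the right one for every member, and DDIT4 spans from 30.3 to 182 CPM.

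The 10 most variable symbols with a mean of 10 CPM or more included DDIT4, OSCAR, CHAC1, PCK2, PHGDH, SESN2, SYTL1, CBS and S1PR4. PCK2, the mitochondrial form of an enzyme of glucose synthesis, measured 41.5, 118 and 76.4 CPM and CBS, cystathionine beta-synthase, 77.1, 189.5 and 128 CPM. Both had the order of the ATF4 list, with replicate 1 lowest and replicate 2 highest. OSCAR, a leukocyte receptor that binds collagen, measured 3.81, 18.2 and 11 CPM, S1PR4, a sphingosine-1-phosphate receptor, 6.78, 16.6 and 11.5 CPM and SYTL1, a vesicle-tethering protein, 7.54, 18.7 and 12.6 CPM. Where replicate 3 was itself the library farthest from the others, the leading symbols included CCDC85B at 20.4, 26.5 and 34.1 CPM and MIR6723, a symbol without a match in the annotation, at 11.2, 12.5 and 15.4 CPM. Where replicate 2 was, HBG1 was among the leading symbols.

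Genes of the cytosolic ribosome moved with the same order at a smaller size. Of 76 tested members 74 were higher in replicate 2 than in replicate 1 (76 with TMM scaling and 75 with median-of-ratios scaling), and 38 reached a ratio of 1.5 (45 with either scaling). Over all tested symbols 41.4% were higher in replicate 2 and 5.32% reached 1.5. The summed level of the 77 listed genes was 66637, 96219.7 and 81320.1 CPM, or a ratio of 1.44. Replicate 3 was the middle library for 73 of the 76 tested members, against 63.7% of all tested symbols. RPS27 measured 566, 1106 and 824 CPM and RPL9 529.8, 1027 and 835 CPM, whereas RPL5 measured 1683, 1862 and 1799 CPM and RPS6 3185, 3077 and 3122 CPM. RPL21 was below the level taken as present, at 0.244, 0.536 and 0.686 CPM. Ribosomal protein genes have many processed copies in the genome, and how the counting treated reads that fit several places was not stated, so single members are uncertain.

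In the immediate-early, heat shock and m6A lists most members were lower in replicate 2, as were most of all symbols, of which 41.4% were higher (4949 of 11943, 5790 with TMM scaling and 5708 with median-of-ratios scaling). Immediate-early genes, which respond within minutes to growth signals, were lower for 11 of 12 tested members (10 with either other scaling), EGR1 at 309, 222 and 249.9 CPM and FOS at 71.1, 53.1 and 59.5 CPM, with ATF3, which ATF4 also induces, as the exception at 9.22, 15.4 and 13.4 CPM. Heat shock genes were lower for 8 of 9 (6 with TMM scaling and 7 with median-of-ratios scaling, which is nearer to the share of all symbols), HSP90AA1 at 2339, 1783 and 2112 CPM and HSPH1 at 309, 237 and 281 CPM. All 15 m6A genes were lower (13 with either other scaling), with a median log2 difference of -0.29, and none reached a ratio of 1.5. Among the globins 8 of 9 were higher in replicate 2 and 6 reached 1.5, against 41.4% and 5.32% of all tested symbols. Of the erythroid factors 9 were higher and 8 lower, and of the red cell membrane list 14 were higher and 12 lower.

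Transcript length and base composition moved with these differences. Over 11742 symbols with an annotated transcript, Spearman's rho of the log2 difference between replicates 2 and 1 was -0.51 with length and 0.51 with GC content, both across genes that share the libraries. In the 1st of 5 equal length classes, of median length 1231 bases, the median difference was 0.19 and 13.6% had a ratio of 1.5 or more, and in the 5th, of median length 7489 bases, these values were -0.21 and 1.75%. The median transcript of the globins was 587 bases, that of the ribosomal proteins 827 and that of the m6A genes 5094, against 3286 over all tested symbols. Both trends were then removed from each library, length and then GC content. They were fitted over the same symbols, members of these lists included. The change on removal is therefore not a measured part due to length or GC content. The count of symbols past 1.5 then fell from 613 to 434 of the same 11742, and 312 were in both sets.

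With the trends removed the lists changed by unequal amounts. The ATF4 list kept all 11 members higher in replicate 2, with 8 past 1.5 and a median log2 difference of 0.80, and the ratio of DDIT4 was 5.27. The ribosomal proteins kept 70 of 76 members higher, with 18 past 1.5 and a median of 0.35 instead of 0.59. The globins had 6 of 9 higher and 3 past 1.5, HBG1, HBG2 and HBB, and their median fell from 0.67 to 0.16. The m6A genes had 1 of 15 higher, so that 14 were still lower, by a smaller median of -0.06 against -0.01 over all symbols. The red cell membrane list went from 14 to 21 of 26 higher, with a median of 0.07, and the erythroid factors from 9 to 10 of 17. Of the immediate-early genes 2 of 12 were higher and of the heat shock genes none, with medians of -0.43 and -0.24. Over all symbols 5675 of 11742 were higher. The cause of the differences was not tested, for the removed part or for the remaining one.

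**Figure D5:**
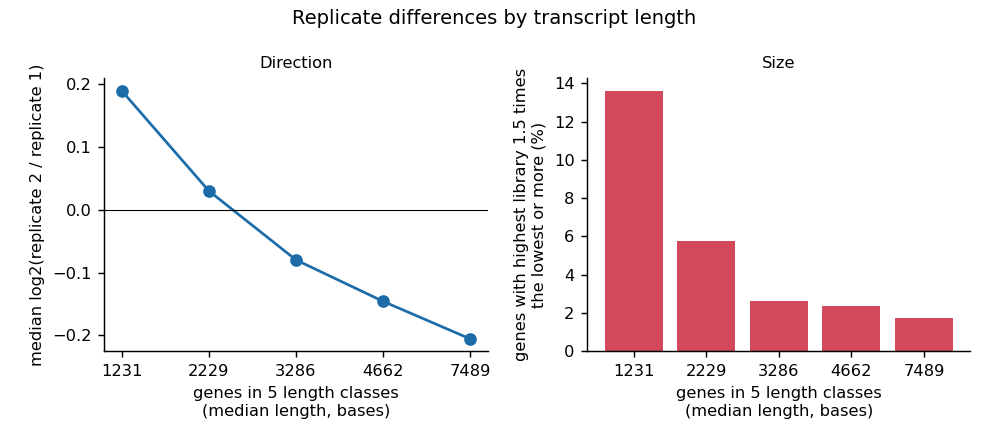
Genes in 5 classes of equal size by length of the canonical transcript, labelled with the median length in bases. The left panel shows the median log2 ratio of replicate 2 to replicate 1, which goes from 0.19 in the shortest class to -0.21 in the longest, and the right panel shows the percentage of genes whose highest library was 1.5 times the lowest or more, from 13.6% to 1.75%.

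Leaving out any 1 of the 3 libraries left the count of present members as it was for 10 of 13 lineage lists. It raised the count by 1 member for the granulocyte-monocyte, mast cell and lymphoid lists. A present member needs 1 CPM in every library kept, so a count could only stay or rise. No single library thus kept out more than 1 member of a list, and dependence of the lineage picture on a library was not tested.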

How the data were processed

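RNA-seq of control HEL cells was read from the 3 deposited NTC tables, each with 1 CPM value per gene symbol. The study's methods describe alignment by TopHat2 to the hg19 assembly followed by HTSeq counting over UCSC gene models, and the submitters' processing notes add edgeR. Versions are not given in the sources used here. The labels name an RNeasy kit and standard Illumina library protocols, while the methods for the knockout lines name Trizol and a stranded KAPA kit, so the preparation of these libraries, how reads of near-identical copies were counted and whether strand was used are unsure, and values of overlapping genes are uncertain.

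CPM as deposited by the authors summed to 1000000 per library, and 100% of values were whole multiples of 1 read within 0.01 reads, so whole reads were recovered. The libraries held 40985430, 37317530 and 37876462 reads. Tested symbols had a mean of 1 CPM or more. Spread was the ratio of the highest to the lowest library, reads were compared by chi-square with 2 degrees of freedom and Benjamini-Hochberg adjustment, and the coefficient of variation came from edgeR (4.0.16, R 4.3.3) with TMM scaling. On simulated reads for 11943 genes the chi-square step called 42 of 47 genes changed 1.5-fold and made 1 false call. It called 34 of 48 genes changed 1.25-fold and 23 of 53 changed 1.1-fold. The simulated reads held counting error only, without the spread between libraries seen here. The simulation therefore checks the step against counting error and cannot tell how it behaves with that spread. Symbols were matched to GENCODE on GRCh37, 21522 by symbol, 1258 by an older symbol and 2039 not at all. Correlations used log2(CPM + 1), and trends with length and GC content were removed by lowess. Other level limits, scalings, lengths and filters and the loss of each library were tried as alternatives.

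Named genes were the 20 of highest mean CPM, the 10 highest per kilobase, the highest and the floor-level members of each list, the 10 of largest ratio at a mean of 10 CPM or more and the 3 leading for each odd library. The members and lists were chosen with earlier results of these data known. Samples were grouped by title. Some genes that the rule names are not reported here.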

Additional observations from a re-analysis of the deposited data

How the results depend on the processing

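No paired analysis was possible because 1 group was described and no test between groups was made. The count of present genes ran from 9977 at a level of 5 CPM to 14488 at 3 reads or more in every library, and without each replicate from 11790 to 11854. At 5 CPM the mast cell list kept 3 of its 5 present members and the lymphoid list 5 of 9, and the other 11 lineage lists stayed within 1.5 times of their counts. With the canonical transcript as length, chosen after seeing the data, 6 of the 10 highest genes per kilobase were shared. The 635 symbols past 1.5 became 235 at a mean of 10 CPM or more, 345 with no filter and a pseudocount of 1 CPM, and 73 at a ratio of 2, while TMM and median-of-ratios scaling gave 756 and 744 and thinning to the shallowest library 643. Leaving out 1 replicate gave 115 to 545, because fewer libraries are compared and because replicates 1 and 2 lay farthest apart. Added after seeing the data, removal of the length and GC trends gave 434 and removal of the ribosomal protein and ATF4 lists 588. The chi-square count of 6161 ranged from 2619 to 6097 without 1 replicate and from 5836 to 6099 under the other settings. The coefficient of variation of 9.16% ranged from 6.27 to 12.7% without 1 replicate and from 9.12 to 9.21% otherwise. The lowest correlation between libraries was 0.992 over symbols with a mean of 1 CPM or more. The mean CPM of the 409 described genes at 1 CPM or more stayed within 0.998 to 1.01 times its value under either scaling. Without 1 replicate it ranged from 0.169 to 1.5 times over these genes, and that of DDIT4 from 0.643 times without replicate 2 to 1.36 times without replicate 1. A total without mitochondrial symbols was not run, since none was listed. With 3 libraries each SD is poorly known, and genes of a few reads cannot be ordered at this depth.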
